A study of Homo sapiens with 12 samples.

Results

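CCL2, CCL3, CCL5, CCL20, CCL24, CCL26, CCL28 and CX3CL1, 8 genes of the CC and CX3C chemokine families, were followed by RNA-seq in MDA-MB-231-ERβ cells. They were taken by symbol from the genes present in the count table, with earlier results of these data known, and make up 8 of its 12451 entries. MDA-MB-231 is a cell line of triple negative breast cancer (TNBC), and the MDA-MB-231-ERβ line derived from it carries full length human ERβ under the control of dox, so the level of the receptor is set by the construct and not by a gene in its own context. Every group was cultured in dishes with charcoal-stripped serum and dox, and cells without dox were not analysed here. The vehicle group received ethanol for 5 days, and the E2 group received 1 nM 17β-estradiol (E2) for 5 days. The TNFα group received vehicle for 5 days with 20 ng/ml TNFα added for the last 3 h, and the E2+ TNFα group received E2 for 5 days with the same late dose of TNFα. The treatment label of the E2+ TNFα group does not name dox, whereas its treatment protocol does. Each group had 3 libraries, 12 in all. The methods of the study describe its cell culture work in general as biologically replicated, but the labels do not say whether the dishes of a group came from separate cultures, and if they did not, the p-values measure a spread that may be technical.

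Chemokines are small secreted proteins that bind G protein-coupled receptors on leukocytes and direct their migration along a gradient, much of which is held on heparan sulfate at cell surfaces. CC chemokines have neighbouring cysteines near the amino terminus, and CX3CL1 has 3 residues between them and is made as a membrane-anchored protein that proteases can shed. NFκB, the transcription factor that TNFα activates, is a known regulator of several CC chemokine genes, and TNBC cells are a known source of CCL2, CCL5 and CCL20.

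Libraries held 7652016 to 39943664 assigned reads and were shallowest in the E2 group (7652016 to 15755240). ESR2, which encodes ERβ, was at 472 ± 14.8 CPM (counts scaled to library size by TMM, mean ± SD, n = 3) in vehicle, 254 ± 26.7 in TNFα, 306 ± 14.7 in E2 and 448 ± 53.1 in E2+ TNFα libraries. Markers of this mesenchymal line were abundant (VIM, 1040 to 1665 CPM), and the epithelial marker EPCAM was at 6.53 to 15.6 CPM. CDH1, also epithelial, was at 3.14 CPM in vehicle, 1.90 in TNFα, 41.0 in E2 and 40.6 in E2+ TNFα libraries. Of 15 leukocyte and endothelial markers, 4 (CD68, CD8A, CD14 and LYZ) could be read. Their summed level was 91.7 to 98.9 CPM in vehicle, 103 to 117 in TNFα, 105 to 111 in E2 and 84.6 to 119 in E2+ TNFα libraries. Most of it came from CD68, so the sum hides the others. In the same order of groups CD8A was at 2.96, 8.56, 12.2 and 10.8 CPM, LYZ at 0.102, 0.199, 1.68 and 2.33, and CD14 at 0.651, 1.47, 1.15 and 0.707. The part of these markers in the results was not tested, and the other 11, PTPRC among them, were not analysed here. The 3 vehicle libraries stood apart from the 9 others on the first principal component of log2 CPM (68.7% of the variance). Changes from vehicle also followed exon GC content across genes (Spearman correlation of 0.706 for TNFα and 0.655 for E2, over genes, which are not independent). The labels give no batch, so a batch that covers just these libraries and the treatment cannot be told apart. E2+ TNFα relative to E2 and E2+ TNFα relative to TNFα do not use the vehicle libraries, except for the shared estimate of the spread, and with these libraries left out of the fit (an alternative chosen after seeing the data) the same chemokines were past the thresholds in both.

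The windows of 250 bases before the transcription start that RefSeq annotates (GRCh38.p14) were searched for the 5 of 8 genes that matched by symbol (9 windows), all but CCL2, CCL5 and CX3CL1. The motifs were an NFκB-like motif (GGG, 5 bases of any kind, CC), an AP-1 motif TGANTCA, an estrogen response element (GGTCA, 3 bases of any kind, TGACC) and a TATA box TATAAA, each read on both strands with overlapping matches kept. The window of CCL20, a gene that TNFα raised, is shown beside those of CCL28 and CCL26, which it did not move past the thresholds, with each NFκB-like match in capitals. They lie at chr2:227813592-227813841 on the plus strand, chr5:43412392-43412641 on the minus strand and chr7:75789747-75789996 on the minus strand.
CCL20: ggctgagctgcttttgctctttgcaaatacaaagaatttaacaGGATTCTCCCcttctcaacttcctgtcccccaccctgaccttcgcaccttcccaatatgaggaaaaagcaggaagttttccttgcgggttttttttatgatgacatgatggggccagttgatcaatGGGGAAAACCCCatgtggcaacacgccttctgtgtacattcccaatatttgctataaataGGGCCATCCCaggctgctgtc
CCL28: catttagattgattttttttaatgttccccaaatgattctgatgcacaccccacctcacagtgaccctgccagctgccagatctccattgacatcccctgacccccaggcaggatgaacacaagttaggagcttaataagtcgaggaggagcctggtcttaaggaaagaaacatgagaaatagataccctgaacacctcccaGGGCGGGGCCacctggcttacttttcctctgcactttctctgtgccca
CCL26: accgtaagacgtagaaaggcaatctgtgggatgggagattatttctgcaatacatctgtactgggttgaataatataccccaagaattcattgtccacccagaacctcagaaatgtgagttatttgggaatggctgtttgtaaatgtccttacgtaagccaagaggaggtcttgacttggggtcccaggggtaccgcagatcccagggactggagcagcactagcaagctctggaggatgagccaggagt
The CCL20 window held 5 matches. They began 207, 81, 80, 79 and 21 bases before the start, and those at 81, 80 and 79 overlap in a single run. A TATA box lay 29 to 24 bases before the start. The CCL28 window held 1 NFκB-like match, at 48 to 39 bases, and the CCL26 window held none. Of the windows not shown, CCL24, which TNFα did not move past the thresholds, had 3 NFκB-like matches in 1 of its 2 windows and 0 in the other. CCL3 had 1 NFκB-like match in 1 of its 3 windows, and the other window of CCL28 had 0. Another window of CCL3 held a TATA box at the same 29 to 24 bases as in CCL20. Among 35114 promoter windows of this length 54.4% held at least 1 NFκB-like match, 6.57% an AP-1 motif, 0.0399% the estrogen response element and 10.7% a TATA box. The AP-1 motif was in both windows of CCL24, and no window of the 5 genes held the full estrogen response element. A match describes the letters and not a bound site, and the absence of one says nothing of the factor outside the window.

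CCL2 and CCL20 rose after TNFα both in vehicle-treated and in E2-treated cells. These comparisons share no library, and none of the other 5 chemokines tested passed the thresholds in either. Genes past the thresholds had a log2 fold change of 1.5 or more in size, a p below 0.05 and a Benjamini-Hochberg adjusted p no higher than 0.1 (edgeR, 11303 genes). In E2-treated cells, where 0.407% of all genes were past the thresholds (0.389% higher and 0.0177% lower), the 2 chemokines were higher among 7 tested. Relative to vehicle, 26.7% of all genes were past them (6.64% higher and 20% lower), so the 2 of 7 stand against a far larger background there. The median log2 fold change over the 7 was 0.26 in both comparisons, beside 0.01 over all genes in both, and it was unaltered with CCL20 at its bound. CX3CL1 had an RPKM (reads scaled to exon length and library size) of at least 1 in 0 libraries and was not tested. Testing required that RPKM in 3 or more libraries. CCL2 and CCL20 reached it in 5 libraries each, all with TNFα, and CCL5 in 4, all with E2. These genes were thus tested through the groups where they were high. Counts among the 7 are therefore a description, and setting them beside the share of all genes is no test. Groups without overlap are frequent in some of these comparisons, since every library of one group was above every library of the other for 15.3% of all genes in E2+ TNFα relative to E2, 46.8% in E2+ TNFα relative to TNFα, 86.6% in TNFα relative to vehicle and 80.9% in E2 relative to vehicle. In bulk RNA, fewer cells that express a gene and less of its RNA per cell cannot be told apart.

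**Figure D1:**
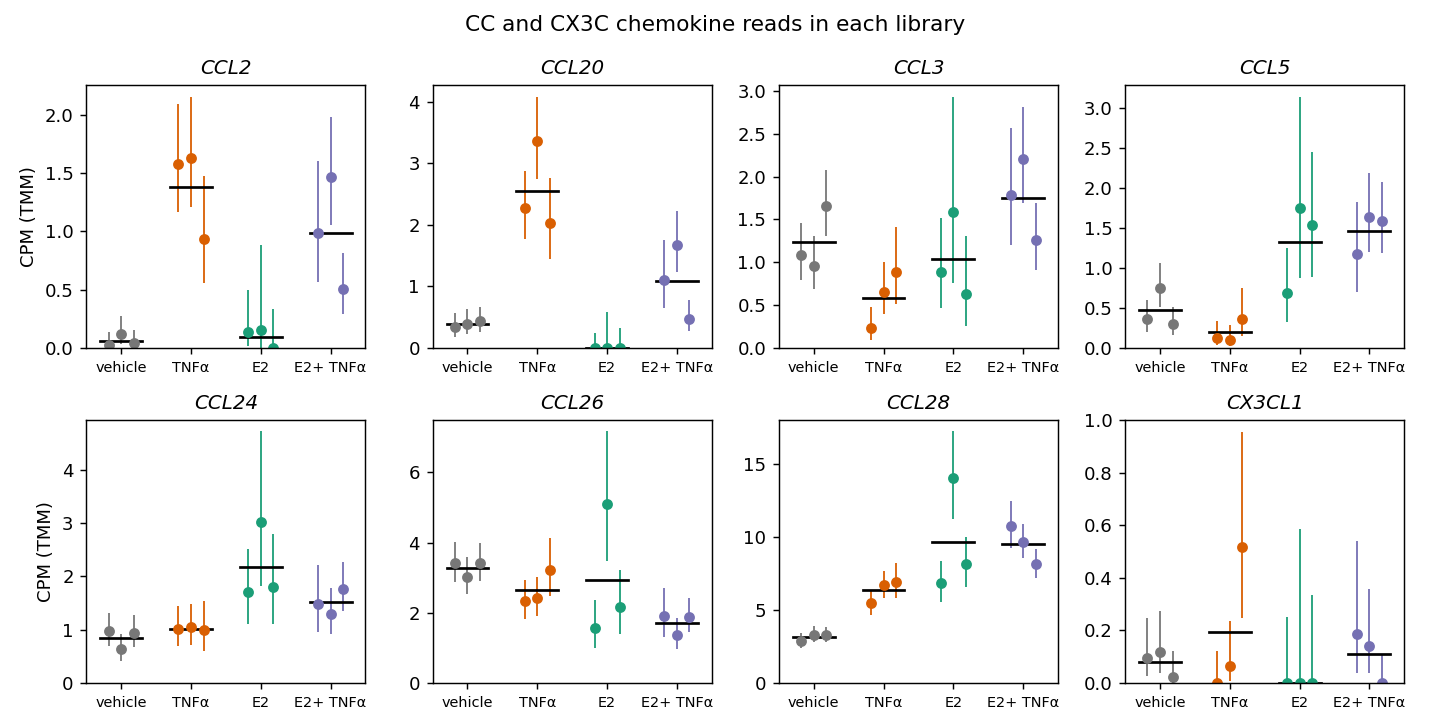
CPM of each chemokine (TMM-scaled, vertical axis, separate scale per gene) in the 12 libraries by group (horizontal axis). Points are libraries, vertical lines their exact 95% Poisson intervals, which cover counting error only, and black bars group means. CCL2 and CCL20 are higher in every library with TNFα than in the matched group without it, CCL20 has 0 reads in the 3 E2 libraries, and CCL28 is lowest in vehicle.

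CCL2 draws monocytes through the receptor CCR2 and lies on chromosome 17 (34255277 to 34257203 of hg38, plus strand, 3 exon blocks of 749 bases in all). It was read at 0.0241, 0.117 and 0.0437 CPM in vehicle libraries, from 1, 5 and 2 counts, and at 1.58, 1.63 and 0.934 CPM in TNFα libraries, from 48, 50 and 18 counts. With E2 it was at 0.137, 0.159 and 0 CPM, from 2, 1 and 0 counts, and with E2+ TNFα at 0.987, 1.47 and 0.508 CPM, from 16, 42 and 17 counts. Every library with TNFα was thus above every library without it, and in both groups without TNFα the gene was close to the limit of detection. Relative to vehicle, the log2 fold change of CCL2 was 4.41 (standard error 0.589, adjusted p = 7.14e-06). In E2-treated cells the ratio was 10.2, with a 95% counting interval of 3.37 to 50.7 (75 counts against 3), and the fitted log2 fold change was 3.32 (standard error 0.829, adjusted p = 0.0483). The size of this change stayed past the threshold, but the call was lost without E2 replicate 1 (3.97, adjusted p = 0.144), without E2+ TNFα replicate 2 (2.84, adjusted p = 0.195) and in a fit of the 2 groups alone (3.33, adjusted p = 0.197). Between E2+ TNFα and TNFα, CCL2 did not differ beyond the spread between libraries (-0.52, standard error 0.434, adjusted p = 0.371), and the groups overlapped. E2 and vehicle could not be separated at this depth either, where the ratio of vehicle to E2 was 0.657 with a counting interval of 0.158 to 3.85.

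CCL20 attracts cells that carry CCR6, such as Th17 cells and immature dendritic cells, and lies on chromosome 2 (227813842 to 227817564, plus strand, 842 exon bases). Its exons have a GC content of 35.63%, at the 1.00 percentile of the 11303 genes tested, and changes from vehicle rose with GC content across genes. The gene was read at 0.338, 0.399 and 0.437 CPM in vehicle and at 2.27, 3.35 and 2.02 CPM in TNFα libraries. With E2 it had 0 counts in all 3 libraries, where 3 counts, taken as the floor of each library, would be 0.205, 0.478 and 0.271 CPM. With E2+ TNFα it was at 1.11, 1.68 and 0.478 CPM, from 18, 48 and 16 counts. The 4 groups followed each other from TNFα through E2+ TNFα and vehicle to E2 with no overlap between neighbours. Relative to vehicle, TNFα raised CCL20 by 2.70 on the log2 scale (standard error 0.428, adjusted p = 6.69e-05), and the change stayed past the thresholds in all 15 alternatives that could test it, from 2.44 to 5.74. In E2-treated cells the gene was at least 3.43-fold higher with TNFα (against 3 counts per library, adjusted p = 0.0173). The fitted value of that change, 7.85, depends on how a group of zeros is handled and is no bound. Across the 16 alternatives it stayed past the thresholds, with an adjusted p between 0.000519 and 0.088.

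CCL20 was also the chemokine that was lower after E2. Relative to vehicle it was past the thresholds as lower (adjusted p = 0.00448), and the vehicle level was at least 1.23-fold the floor of the shallow E2 libraries, a log2 bound of 0.30 that is under the size threshold. With the reads of each group pooled, at 51 counts against 0, the ratio had a lower 95% counting limit of 3.29-fold. The exact interval of E2 replicate 2 reached 0.587 CPM, above every vehicle library. With an unwanted factor taken from housekeeping genes the adjusted p was 0.257. That factor was at 0.419 to 0.494 in vehicle libraries and at -0.380 to 0.0740 in the others, so it sets vehicle apart. Where a comparison uses vehicle, a call lost with this factor cannot tell an unwanted shift from the treatment. Between E2+ TNFα and TNFα, a comparison with more reads, CCL20 was lower, at -1.25 on the log2 scale (standard error 0.406, adjusted p = 0.0283), under the size threshold. It was past that threshold without E2+ TNFα replicate 2 (-1.805), with the unwanted factor (-1.67) and after removal of GC and length trends (-1.93). With 1 library left out it was as small as -0.846, and over all alternatives its adjusted p reached 0.112. The test of the TNFα effect with E2 against that without E2 gave 5.15 (standard error 2.14, adjusted p = 0.0450), a value that rests on the 0 counts and was not past the thresholds in 7 of 20 alternatives.

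**Figure D2:**
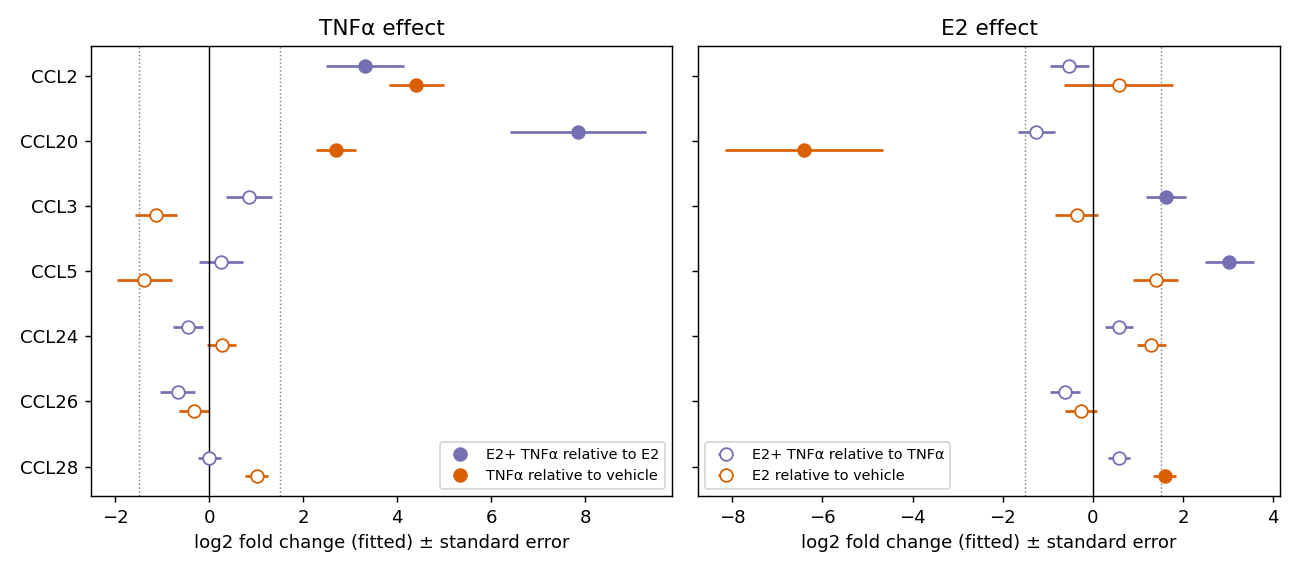
Fitted log2 fold change ± standard error (horizontal axis) of the 7 chemokines tested, for the TNFα effect (left) and the E2 effect (right), each in the presence (purple) and absence (orange) of the other treatment. Filled points are past the thresholds and dotted lines mark the size threshold of 1.5. Filled are CCL2 and CCL20 in both TNFα comparisons, CCL3 and CCL5 in E2+ TNFα relative to TNFα and CCL20 and CCL28 in E2 relative to vehicle, while the values of CCL20 against the E2 group (7.85 and -6.41) depend on the handling of zeros.

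CCL3 and CCL5, which recruit macrophages and T cells, were higher with E2+ TNFα than with TNFα alone. They were the 2 of 7 chemokines past the thresholds there, where 5.56% of all genes were past them (3.55% higher and 2.01% lower). CCL5 reached the RPKM needed for testing only in E2-treated libraries, so this count is a description as well. The median over the 7 was 0.58 and over all genes 0.04. CCL3 (chromosome 17, 36088256 to 36090160, minus strand, 797 exon bases) was at 1.09, 0.962 and 1.66 CPM in vehicle and at 0.230, 0.651 and 0.883 CPM in TNFα libraries. It was at 0.888, 1.59 and 0.632 CPM with E2 and at 1.79, 2.20 and 1.26 CPM with E2+ TNFα. The TNFα libraries lay below every vehicle and every E2+ TNFα library and overlapped those with E2. Relative to TNFα, E2+ TNFα raised CCL3 by 1.62 on the log2 scale (standard error 0.445, adjusted p = 0.0103). The size fell under the threshold without TNFα replicate 1 (1.20), without E2+ TNFα replicate 2 (1.395) and after removal of GC and length trends (1.456). TNFα alone changed CCL3 by -1.13 relative to vehicle (adjusted p = 0.0283), under the size threshold, whereas in E2-treated cells the value was 0.85 (adjusted p = 0.354). The former was past the thresholds after removal of GC and length trends (-1.66, adjusted p = 0.002), and at -0.33 (adjusted p = 0.847) with the unwanted factor, -0.71 (adjusted p = 0.146) without TNFα replicate 1 and -0.86 (adjusted p = 0.137) without vehicle replicate 3. The TNFα libraries enter both of the changes of CCL3 named first, the rise relative to TNFα and the fall relative to vehicle. The difference between these TNFα effects was 1.98 (standard error 0.650, adjusted p = 0.0135).

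CCL3 has a near-identical neighbour, CCL3L1, whose transcript matched it at 93.0% of aligned bases, and 72 of the 650 windows of 50 bases in CCL3 (11.1%) also occurred in CCL3L1. Reads from these stretches could be assigned to either gene. The lncRNA CCL3-AS1 overlaps 468 exon bases on the opposite strand, and although the library kit marks strand, the setting used in counting is not given in the sources used here. CCL3L1 itself was at 3.47 ± 0.193, 0.926 ± 0.292, 1.85 ± 1.49 and 3.62 ± 0.856 CPM (SD, n = 3) in vehicle, TNFα, E2 and E2+ TNFα libraries. Its log2 fold change was -1.89 for TNFα relative to vehicle (adjusted p = 0.000463) and 1.94 for E2+ TNFα relative to TNFα (adjusted p = 0.00158), both past the thresholds. With the counts of the pair summed, an alternative chosen after seeing the data, these changes were -1.645 (adjusted p = 0.000166) and 1.83 (adjusted p = 0.000299).

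CCL5 (chromosome 17, 35871491 to 35880373, minus strand, 1312 exon bases) had the largest fitted change between E2+ TNFα and TNFα among the 7 chemokines tested. It was at 0.362, 0.751 and 0.306 CPM in vehicle, from 15, 32 and 14 counts, and at 0.131, 0.0977 and 0.363 CPM in TNFα libraries, from 4, 3 and 7 counts. With E2 it was at 0.683, 1.75 and 1.53 CPM and with E2+ TNFα at 1.17, 1.64 and 1.58 CPM. The E2+ TNFα libraries all lay above those with TNFα or vehicle, and they overlapped those with E2. Relative to TNFα, the log2 fold change of CCL5 with E2+ TNFα was 3.03 (standard error 0.539, adjusted p = 0.000448), and it stayed past the thresholds in all 16 alternatives, from 2.66 to 3.65. E2 alone gave 1.39 relative to vehicle (standard error 0.500, adjusted p = 0.0192) and TNFα alone -1.38 (standard error 0.581, adjusted p = 0.0409), both under the size threshold. The E2 change was past it without vehicle replicate 2 (1.86) or E2 replicate 1 (1.775), but no longer passed the test with the unwanted factor (1.00, adjusted p = 0.535), after removal of GC and length trends (0.50, adjusted p = 0.382) or without E2 replicate 3 (1.14, adjusted p = 0.102). The TNFα change was past it without vehicle replicate 1 (-1.54), vehicle replicate 3 (-1.62) or TNFα replicate 3 (-2.00), with library size as the only normalization (-1.57) and after removal of GC and length trends (-2.01). It no longer passed the test without vehicle replicate 2 (-0.88, adjusted p = 0.216), TNFα replicate 1 (-1.17, adjusted p = 0.132) or TNFα replicate 2 (-1.04, adjusted p = 0.157), or with the unwanted factor (-1.73, adjusted p = 0.287). Within E2-treated cells TNFα changed CCL5 by 0.26 (standard error 0.469, adjusted p = 0.807). The difference between the TNFα effects with and without E2, at 1.64 (standard error 0.748, adjusted p = 0.0616), was past the thresholds in only 9 of 20 alternatives.

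CCL24 and CCL26, the eotaxins that act on eosinophils through CCR3, did not pass the thresholds in any comparison. CCL24 (chromosome 7, 75811429 to 75823356, minus strand, 1028 exon bases) was at 0.966, 0.633 and 0.939 CPM in vehicle and at 1.02, 1.04 and 0.986 CPM in TNFα libraries. It was at 1.71, 3.02 and 1.81 CPM with E2 and at 1.48, 1.29 and 1.76 CPM with E2+ TNFα. The 6 libraries with E2 were all above the 6 without it. Relative to vehicle, the log2 fold change with E2 was 1.30 (standard error 0.324, adjusted p = 0.00187), under the size threshold. With the unwanted factor it was 0.09 (adjusted p = 0.938), and after removal of GC and length trends 0.20 (adjusted p = 0.532). In TNFα-treated cells E2 gave 0.58 (standard error 0.309, adjusted p = 0.158). TNFα itself gave 0.26 relative to vehicle and -0.46 in E2-treated cells, with adjusted p of 0.443 and 0.463.

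CCL26 (chromosome 7, 75769524 to 75789746, minus strand, 562 exon bases) had the highest mean RPKM of the 8 genes in all 4 groups, although in E2+ TNFα replicate 2 it was at 2.42 RPKM and CCL3 at 2.76. It was at 3.40, 3.03 and 3.41 CPM in vehicle, and at 2.33, 2.41 and 3.22 CPM in TNFα libraries. With E2 it was at 1.57, 5.09 and 2.17 CPM, and with E2+ TNFα at 1.91, 1.36 and 1.88 CPM. E2 replicate 2, the library with the fewest reads, was above the range of the other 11 libraries, and without it the E2 group would lie below vehicle. The E2+ TNFα libraries lay below those with vehicle and TNFα, but the comparison with TNFα, at -0.62 (standard error 0.339, adjusted p = 0.165), did not pass the test. Only with the unwanted factor was CCL26 past the thresholds, at -1.93 for TNFα and -2.11 for E2, each relative to vehicle.

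CCL28, an epithelial chemokine that acts on lymphocytes through CCR10 and CCR3, was lowest in vehicle. The gene lies on chromosome 5 (43376645 to 43412391, minus strand) and has the most exon bases of the set, 4355. It was at 2.85, 3.28 and 3.28 CPM in vehicle and at 5.46, 6.68 and 6.90 CPM in TNFα libraries. With E2 it was at 6.83, 14.01 and 8.12 CPM, and with E2+ TNFα at 10.7, 9.64 and 8.13 CPM. All 9 treated libraries were above the vehicle libraries, and every E2+ TNFα library was above the TNFα libraries. Relative to vehicle, E2 raised CCL28 by 1.59 on the log2 scale (standard error 0.257, adjusted p = 4.22e-05), and TNFα by 1.01 (standard error 0.248, adjusted p = 0.00164), the latter under the size threshold. Together with CCL20 this made 2 of 7 chemokines past the thresholds in E2 relative to vehicle, where 30.5% of all genes were past them (9.87% higher and 20.6% lower), a share near that background. The median over the 7 was 0.57 there and over all genes -0.02. The E2 change of CCL28 missed the size threshold when vehicle replicate 1 (1.49) or E2 replicate 2 (1.29) was left out, with library size as the only normalization (1.22) and with the unwanted factor (1.19). Removal of GC and length trends brought it to 2.99, and that of TNFα to 2.33. In the comparisons that do not use the vehicle libraries, CCL28 differed by 0.58 between E2+ TNFα and TNFα (standard error 0.244, adjusted p = 0.0752) and by 0.01 between E2+ TNFα and E2 (standard error 0.250, adjusted p = 0.994). The TNFα effect with E2 minus that without E2 was -1.01 (standard error 0.352, adjusted p = 0.0186).

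CX3CL1, the membrane-anchored ligand of CX3CR1, lies on chromosome 16 (57372461 to 57385048, plus strand, 3318 exon bases). It had 4, 5 and 1 counts in vehicle, 0, 2 and 10 in TNFα, 0, 0 and 0 in E2 and 3, 4 and 0 in E2+ TNFα libraries. The 10 counts of TNFα replicate 3 (0.519 CPM) were the highest value, and the other 11 libraries lay at or under 0.185 CPM. No difference was detectable at this depth, and no fold is given because the groups lie near the floor of 3 counts per library.

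In the test of whether the TNFα effect differed with and without E2, CCL3, CCL5 and CCL20 were past the thresholds as higher, 3 of 7 beside 31.8% of all genes (22.5% higher and 9.29% lower). This test uses the vehicle libraries, and at an adjusted p of at most 0.1, whatever the size, it called 76.6% of all genes, beside CCL3, CCL5, CCL20 and CCL28. The median of the 7 was -0.35, opposite in sign to these 3, and that of all genes -0.01. With the unwanted factor, 0 of the 7 were past the thresholds in edgeR (1 at an unadjusted p under 0.05). Since that factor sets the vehicle libraries apart from the others, this loss cannot tell an unwanted shift from the treatment.

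**Figure D3:**
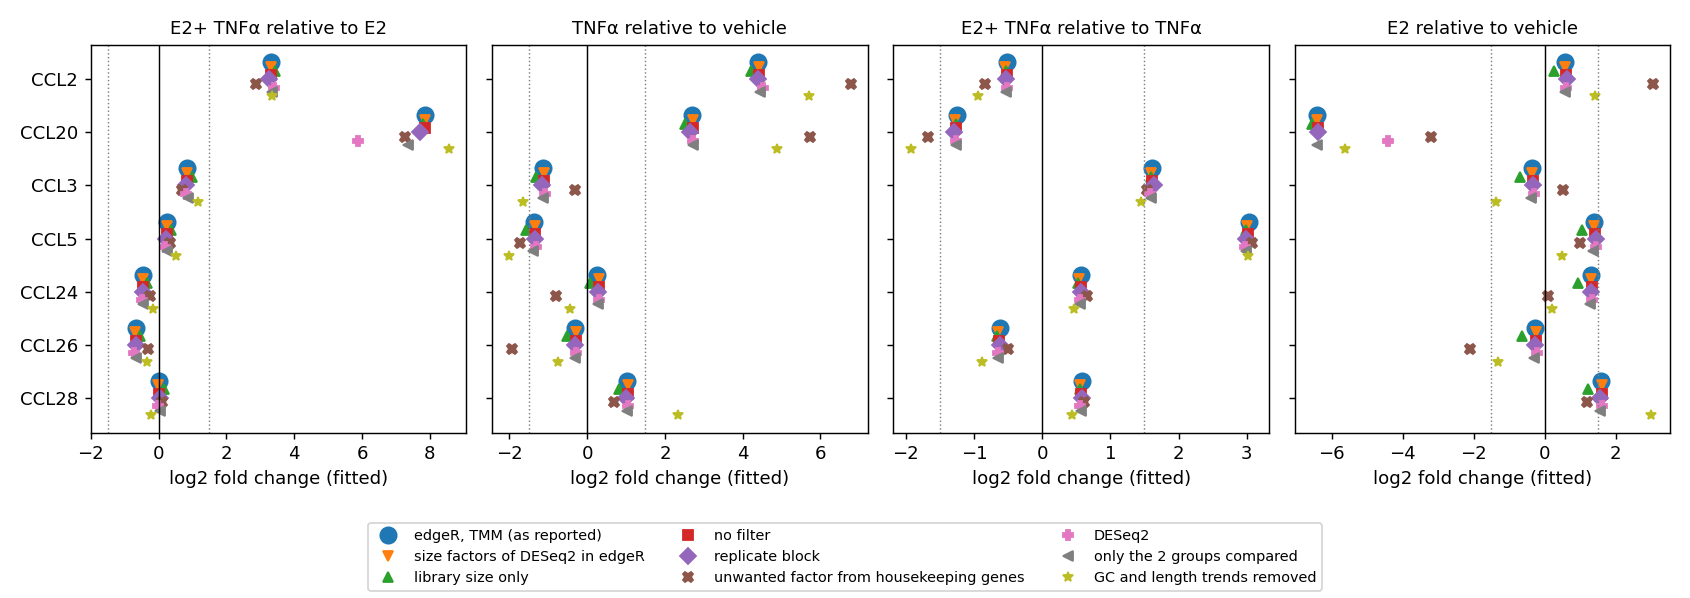
Fitted log2 fold change (horizontal axis) of the 7 chemokines tested in the 4 comparisons, as reported and under 8 other ways of processing that kept every library. Dotted lines mark the size threshold of 1.5. The points lie close together in the 2 comparisons without vehicle, apart from CCL20 against the E2 group, and are spread most in the 2 with vehicle, where the unwanted factor and the removal of GC and length trends moved each of the 7 genes in at least 1 comparison.

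Levels can be set between genes only per length, so the make-up of the set is given in RPKM. The 8 genes summed to 9.86 ± 0.722 RPKM in vehicle, 12.98 ± 1.23 in TNFα, 12.01 ± 5.90 in E2 and 12.7 ± 1.52 in E2+ TNFα libraries (SD, n = 3). E2 replicate 2, at 18.8 RPKM, set the wide spread of its group, whose other libraries were at 7.84 and 9.44. CCL26 made up 59.2% of the sum in vehicle, 36.4% in TNFα, 41.6% in E2 and 24.6% in E2+ TNFα libraries. The share of CCL20 was 4.72%, 23.3%, 0% and 9.85% in the same order, and that of CCL2 0.861%, 14.4%, 1.15% and 10.1%. CCL20 and CCL2 were therefore the next in RPKM after CCL26 with TNFα, while CCL3 and CCL28 held those places with E2+ TNFα. Shares were averaged over libraries and were not tested, and a share falls when another gene of the set rises.

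**Figure D4:**
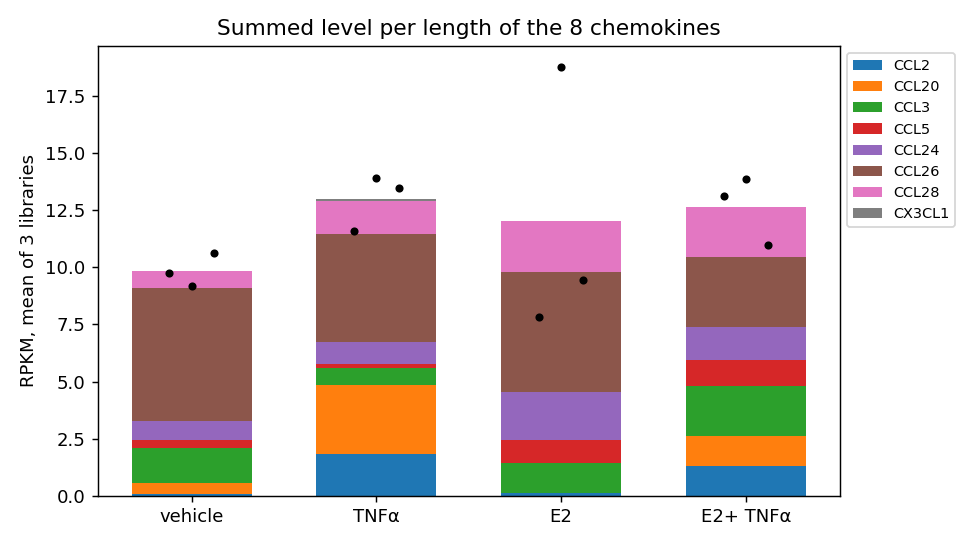
Summed RPKM of the 8 chemokines (vertical axis, mean of 3 libraries) by group, stacked by gene, with black points for the sum in each library. CCL26 is the largest part in every group, and CCL2 and CCL20 take a visible part only in the groups with TNFα, apart from the 0.465 RPKM of CCL20 in vehicle.

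Of 23 chemokine receptor genes listed, CXCR4, CCRL2 and the scavenger receptor ACKR3 were tested, and the others were not analysed here. ACKR3 was the receptor past the thresholds, with 0 counts in all 3 TNFα libraries, 0.317 ± 0.0941 CPM in vehicle, 7.36 ± 0.583 in E2 and 5.54 ± 0.447 in E2+ TNFα libraries. It was at least 47.2-fold higher with E2+ TNFα than with TNFα (against 3 counts per library, adjusted p = 1.52e-08), where 5.56% of all genes were past the thresholds. ACKR3 reached the RPKM needed for testing only in E2-treated libraries, with at most 0.163 RPKM in vehicle. It was thus tested through the groups where it was high, and setting it beside that share is no test. CCRL2, a receptor that does not signal, was at 15.8 ± 1.01 CPM with TNFα and 14.5 ± 1.21 with E2+ TNFα (log2 fold change -0.13, adjusted p = 0.625).

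Among 17 CXC chemokines listed, 7 were in the table and 6 were tested. In E2-treated cells, where 0.407% of all genes were past the thresholds, TNFα raised 4 of them past these, namely CXCL1 (log2 fold change 1.95), CXCL2 (1.91), CXCL3 (3.45) and CXCL8 (3.29), all neutrophil attractants, and the median of the 6 was 1.93. CXCL8 varied widely within E2+ TNFα, at 392 ± 289 CPM against 39.1 ± 28.4 with E2. Relative to vehicle, where 26.7% of all genes were past the thresholds, TNFα raised 2 of the 6, CXCL2 (1.53) and CXCL3 (2.77), and CXCL8 was lower at -1.31 (adjusted p = 0.0281), under the size threshold, with 426 ± 144 against 1056 ± 152 CPM. Relative to TNFα, where 5.56% of all genes were past the thresholds, E2+ TNFα had more CXCL14 (7.88), at 177 ± 19.8 against 0.757 ± 0.120 CPM. It had less CXCL2 (-1.73), at 64.2 ± 4.71 against 212 ± 22.0 CPM.

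Proteases that cut chemokines gave 10 tested genes of 13 listed. In E2+ TNFα relative to TNFα 1 of them was past the thresholds, beside 5.56% of all genes. It was DPP4, which trims the amino terminus of CCL5 and other ligands, at 3.45 on the log2 scale (adjusted p = 4.80e-06). DPP4 was at 0.610 ± 0.339 CPM in TNFα, 6.46 ± 0.511 in E2+ TNFα, 4.51 ± 0.298 in vehicle and 4.36 ± 1.97 in E2 libraries, so the TNFα group was the low one. In E2+ TNFα relative to E2, 0 of the 10 were past the thresholds by edgeR or DESeq2 and 0 had an unadjusted p under 0.05, beside 19.4% of all genes. Relative to vehicle, 6 of the 10 were past the thresholds with TNFα, beside 26.7% of all genes (6.64% higher and 20% lower). MMP1, MMP3, MMP12, ADAM10 and DPP4 were lower and MMP2 was higher. MMP1 was at 478 ± 39.2 CPM in vehicle and at 16.6 ± 0.0338, 16.1 ± 5.56 and 15.4 ± 3.37 CPM in TNFα, E2 and E2+ TNFα libraries.

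Of 13 genes for heparan sulfate carriers and the enzymes that build the chain, all were tested. SDC2 was the only one past the thresholds in E2+ TNFα relative to TNFα (1.72, adjusted p = 8.62e-05), beside 5.56% of all genes. SDC4, a syndecan, was at 255 ± 4.02 CPM in vehicle, 1936 ± 128 in TNFα, 1186 ± 32.2 in E2 and 2125 ± 189.8 in E2+ TNFα libraries. TNFα changed it by 2.93 relative to vehicle, past the thresholds, and by 0.84 in E2-treated cells (adjusted p = 0.000374), under the size threshold. Among 9 regulators of the decay of inflammatory mRNA, 0 were past the thresholds in E2+ TNFα relative to E2 or to TNFα by edgeR or DESeq2, and 2 and 6 had an unadjusted p under 0.05, where 19.4% and 46.3% of all genes did. Relative to vehicle, 3 of the 9 were past them with TNFα, beside 26.7% of all genes. ZC3H12A, an endonuclease that cleaves such mRNA, was higher (2.82), at 282 CPM against 39.9 CPM. Its relative ZC3H12C (-1.67) and RC3H1 (-1.75), which encodes the RNA-binding protein Roquin-1, were lower.

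The genes whose log2 CPM followed each chemokine most closely over the 12 libraries were found among all genes tested, as a description in which libraries of a group share their treatment. CCL20 was followed by CXCL1 (Pearson r of 0.977), CXCL3 (0.975) and TNFAIP3 (0.962), and CCL2 by TRAF1 (0.942), TNF (0.913) and PTX3 (0.911). CCL5 was followed by ANOS1 (0.949), MX2 (0.949) and ALOXE3 (0.939), and CCL28 by SEMA3A (0.962), SLC22A23 (0.958) and VPS18 (0.953). CCL24 was closest to UPK2 (0.971), BET1L (0.964) and MAP6D1 (0.961), and CCL26 to EIF3F (0.898), MBD2 (0.879) and TRIM39 (0.873). CCL3 had the loosest match, to SNAI2 (0.862), CDS1 (0.780) and CCBE1 (0.773). No gene was among the closest 3 of more than 1 chemokine.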

How the data were processed

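RNA-seq of 12 libraries of MDA-MB-231-ERβ cells was re-analysed. The deposited values are whole-number counts per gene, which the authors made with featureCounts after TopHat2 2.1.0 alignment to hg38, per the submitters' processing notes. The RUVseq batch correction of the study is not in them, and its batches and housekeeping genes are not given in the sources used here. RPKM used the deposited gene length. From the table, 46 exact repeats and 70 second symbols of one locus with identical counts were dropped, which left 12451 entries. Genes reaching an RPKM of 1 in 3 or more libraries were scaled by TMM and tested in edgeR 4.0.16 (quasi-likelihood, R 4.3.3), with 4 group means in a single fit. At 7652016 to 39943664 reads per library, genes of few counts are limited by counting error, and exact Poisson intervals and a floor of 3 counts per library cover that error only. Named are the 8 chemokines, the 3 genes closest to each tested one (log2 CPM, prior count of 2), and up to 6 members past the thresholds per related list and comparison. CCL3L1, CCRL2 and SDC4 in E2-treated cells were named after their values were seen. The chemokines and lists were chosen with earlier results of these data known. Alternatives were size factors of DESeq2, library size only, no filter, a minimum of 10 counts per library, an unwanted factor from 20 housekeeping genes, a block on replicate number, DESeq2 1.42.0, the compared groups alone, each library left out, and loess removal (span 0.3) of GC and length trends. A fit without vehicle libraries and the sum of CCL3 and CCL3L1 were added after seeing the data. The steps were tested on simulated data.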

Additional observations from a re-analysis of the deposited data

Results flagged for a closer look

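The TNFα effect with E2 differed from that without E2 for 4 of the 7 chemokines tested, by a test of the difference itself in edgeR. On the log2 scale the difference was 1.98 for CCL3 (adjusted p = 0.0135), 1.64 for CCL5 (adjusted p = 0.0616), 5.15 for CCL20 (adjusted p = 0.0450) and -1.01 for CCL28 (adjusted p = 0.0186). Of all genes tested, 76.6% had an adjusted p of at most 0.1 in the same test, which uses the vehicle libraries. The 4 of 7 lie under that share, so the count is not particular to the chemokines. The differences of CCL5 and CCL20 were past the thresholds in 9 and 13 of 20 alternatives. For CCL28 the difference of -1.01 stands between a TNFα effect of 1.01 relative to vehicle and of 0.01 in E2-treated cells, and after removal of GC and length trends it was -2.55. For CCL20 it rests on the E2 libraries without reads. For CCL3 and CCL5 it rests on TNFα libraries with 7 to 20 and 3 to 7 counts and on E2 libraries with 7 to 13 and 10 to 17. With the unwanted factor the adjusted p was between 0.288 and 0.599 for all 4 genes, but that factor sets apart the vehicle libraries, which the test uses.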

How the results depend on the processing

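Of 594 values of the chemokines' log2 fold changes under alternatives, 520 kept their direction and their side of the thresholds, 31 were no longer past them, 21 came to be past them and 22 changed sign. The labels do not say whether the replicate numbers pair libraries. Deviations of libraries with the same number correlated at -0.482 to 0.467 (over 0.1 in 5 of 18 pairs, and 3 of 12 libraries correlated best with their own number). With 3 libraries per group, these correlations cannot show whether the dishes were paired. The replicate block left 2 chemokines past the thresholds in each of the 4 comparisons of groups, as without it, and 2 in place of 3 in the interaction (the TNFα effect with E2 minus that without), where CCL5 was at 1.55 (adjusted p = 0.0756 in edgeR, with an unadjusted p over the limit).
At least 10 counts in every library left 0 chemokines past the thresholds in all comparisons but E2 relative to vehicle (1), since fewer genes are then tested, and 24 genes in all in E2+ TNFα relative to E2. In a fit of the compared groups only, that comparison had 30 genes and 1 chemokine. The unwanted factor gave 1189, 1778 and 1486 genes in all in TNFα relative to vehicle, E2 relative to vehicle and the interaction, and 1 and 0 chemokines in the last 2. After removal of GC and length trends these counts were 1185, 1574 and 1557, or 1192, 1562 and 1554 with the block as well, and 5 chemokines were past the thresholds in TNFα relative to vehicle in both. Library size only left 1 in E2 relative to vehicle, where the median of all genes was then -0.38 (log2) and -0.02 as reported. The cause of these shifts was not tested, and the unwanted factor sets the vehicle libraries apart from the others. Of the genes past the thresholds in TNFα relative to vehicle, 24.9% were higher as reported, 36.3% with the unwanted factor and 46.4% with the trends removed. These shares were 32.4%, 47.5% and 52.7% in E2 relative to vehicle and 70.8%, 62.6% and 52.9% in the interaction.
Leaving out 1 library gave 34 to 84 genes in all and 1 to 2 chemokines in E2+ TNFα relative to E2 (84 without E2 replicate 3, and 1 chemokine without E2 replicate 1 or E2+ TNFα replicate 2). It gave 1 to 3 chemokines in E2 relative to vehicle (1 without vehicle replicate 1 or E2 replicate 2), 1 to 2 in E2+ TNFα relative to TNFα (1 without TNFα replicate 1) and 1 to 3 in the interaction (1 without E2 replicate 1 or E2+ TNFα replicate 2).
None of the values that changed sign was past the thresholds as reported. CCL24 was at -0.81 with the unwanted factor, -0.44 with the trends removed and -0.43 with the block as well for TNFα relative to vehicle, and at 0.56, 0.26 and 0.24 in the interaction. CCL26 was at 1.62, 0.43 and 0.40 in the interaction and CCL3 at 0.52 with the unwanted factor in E2 relative to vehicle. CCL28 in E2+ TNFα relative to E2 was at -0.0078 with size factors of DESeq2, -0.0048 with DESeq2, -0.22 with the trends removed and -0.21 with the block as well. With 1 library left out it ranged from -0.20 to 0.33, CCL5 in that comparison from -0.13 to 0.46, CCL2 in E2 relative to vehicle from -0.078 to 1.30, CCL26 there from -0.78 to 0.075 and in the interaction from -0.70 to 0.092. Counting error limits CCL2, CCL5, CCL20 and CX3CL1 most, whose lowest groups held 3, 14, 0 and 0 reads.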
